A study of Homo sapiens with 16 samples.

Results

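Of the 87 genes in the deposited count table whose symbols follow the names of collagen, laminin or integrin chains, 53 had at least 10 estimated counts in at least 4 of the 16 libraries, and these 53 are described here, out of 63187 genes in the table and 19530 genes tested. They comprised 25 collagen chains, 8 laminin chains, 10 integrin alpha chains, 6 integrin beta chains and 4 rows that share the name stem without being chains: ITGB1BP1 and ITGB3BP, whose products were named for binding integrin tails, ITGB1BP2, a muscle protein, and ITGB1P1, a pseudogene of ITGB1. All libraries came from the established neuroblastoma line SK-N-BE(2), which carries MYCN amplification, grown at 21% oxygen with 10% serum. WT was the line without a listed construct, and FL, NCTAD and cIDR were the line transfected with the full-length form, the ΔN-CTAD form and the Δc-IDR form of HIF-2α, the oxygen-regulated transcription factor encoded by EPAS1. Each group had 4 libraries, 1 in each of 4 labelled batches, and the batch carries the same number as the replicate. The vector, the time after transfection, whether WT cells received an empty vector and whether replicates were separate cultures are not stated in the labels, so transfection as such cannot be told apart from HIF-2α in a comparison with WT, and p-values measure the spread between these libraries, which may be technical.

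Collagens are trimers of alpha chains. Fibrillar types build fibres, network types build basement membranes, FACIT types decorate fibres, type VI forms beaded filaments, and a few types span the plasma membrane. Laminins are trimers of an alpha, a beta and a gamma chain and are the main adhesive proteins of basement membranes. Integrins pair an alpha with a beta chain and link matrix proteins to the cytoskeleton: alpha1, alpha2 and alpha11 with beta1 bind collagens, alpha3, alpha6 and alpha7 bind laminins, and alphaV with beta5 binds vitronectin. Some collagen genes and several enzymes that hydroxylate and crosslink collagen are known to respond to low oxygen through HIF factors, whose binding core reads ACGTG or GCGTG.

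Promoter windows are shown for the 2 members with the largest log2 fold changes in batch 2 (COL23A1 and COL27A1), the member with the smallest adjusted p there (COL6A2), and ITGB5, called both there and with a HIF-2α form. Each covers the 250 bases before an annotated start in RefSeq (GRCh38.p14), read 5′ to 3′ on the gene's strand, with ACGTG or GCGTG on either strand in capitals (a match on the opposite strand reads CACGT or CACGC).
COL23A1 (minus strand, chr5:178590394-178590643): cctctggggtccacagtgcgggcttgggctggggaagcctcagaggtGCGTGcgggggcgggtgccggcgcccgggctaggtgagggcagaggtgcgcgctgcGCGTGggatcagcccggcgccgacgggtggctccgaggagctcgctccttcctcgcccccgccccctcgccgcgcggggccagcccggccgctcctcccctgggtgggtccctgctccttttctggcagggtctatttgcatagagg
COL27A1 (plus strand, chr9:114155287-114155536): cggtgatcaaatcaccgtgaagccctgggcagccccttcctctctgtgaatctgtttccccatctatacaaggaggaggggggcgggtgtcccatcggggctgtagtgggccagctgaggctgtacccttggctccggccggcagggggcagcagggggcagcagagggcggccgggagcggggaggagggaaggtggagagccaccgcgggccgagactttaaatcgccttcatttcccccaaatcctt
COL6A2 (plus strand, chr21:46097862-46098111): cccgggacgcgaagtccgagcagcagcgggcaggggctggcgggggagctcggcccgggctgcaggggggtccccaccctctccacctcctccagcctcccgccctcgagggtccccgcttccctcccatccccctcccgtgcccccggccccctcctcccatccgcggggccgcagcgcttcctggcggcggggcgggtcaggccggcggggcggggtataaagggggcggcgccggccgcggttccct
ITGB5, outermost start (minus strand, chr3:124901419-124901668): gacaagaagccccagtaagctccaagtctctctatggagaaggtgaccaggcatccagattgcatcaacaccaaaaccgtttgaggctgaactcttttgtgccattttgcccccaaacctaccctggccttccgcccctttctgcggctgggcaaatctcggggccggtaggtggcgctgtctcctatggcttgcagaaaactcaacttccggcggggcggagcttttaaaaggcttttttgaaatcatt
ITGB5, the first of 2 starts inside the gene (minus strand, chr3:124887685-124887934): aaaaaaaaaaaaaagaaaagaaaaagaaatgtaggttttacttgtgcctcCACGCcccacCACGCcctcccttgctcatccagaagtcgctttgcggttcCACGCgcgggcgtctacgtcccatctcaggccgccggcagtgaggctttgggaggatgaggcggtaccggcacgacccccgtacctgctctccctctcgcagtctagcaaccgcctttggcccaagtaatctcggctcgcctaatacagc
The COL23A1 window held 2 matches, beginning 203 and 147 bases before the start. The printed inner ITGB5 window held 3, beginning at 200, 190 and 150 bases, a further inner ITGB5 window, not printed, held 1 at 244 bases, and the windows of COL27A1, COL6A2 and the outermost ITGB5 start held none. RefSeq windows were found for 38 members, 51 windows in all, of which 20 (39.2%) held a match, against 43.2% of 35116 windows of all genes. A match is a run of letters, not a site shown to be bound.

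Libraries held 38.6 to 56.1 M estimated counts, of which the 53 members took 0.126 to 0.163%, so that 3 counts, the limit that a count of 0 allows in 1 library, equal 0.0535 to 0.0778 CPM (counts per 1 M, counting error only). EPAS1, the transfected gene, was at 13.0 to 28.1 CPM in WT, 1691 to 3580 in FL, 1320 to 4228 in NCTAD and 2189 to 5852 in cIDR, as the labels say. All 11 adrenergic neuroblastoma markers were detected, with a summed level of 5879 to 7177 TPM (transcripts per 1 M, a value per transcript length). Markers of other cells were near 0 for leukocytes (0.142 to 0.717 TPM over 6 genes) and endothelium (0.0244 to 0.606 TPM over 5), while fibroblast markers summed to 314 to 493 TPM, most of it THY1 at 261 to 433 TPM, and POSTN had at most 2 counts. Mesenchymal neuroblastoma markers summed to 115 to 144 TPM over 10 genes, and Schwann cell markers to 13.6 to 20.5 TPM over 6. In bulk RNA, fewer cells that make a transcript cannot be told apart from less transcript per cell.

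The expressed set was led by the chains of common laminins and of beta1 and beta5 integrins. By TPM, ITGB1 had 127 ± 16.8 (SD, n = 16), ITGB5 77.4 ± 29.2 and ITGB4, the next beta chain, 1.55 ± 0.89. LAMB1, LAMC1 and LAMB2 had 84.4 ± 14.5, 49.2 ± 8.38 and 27.6 ± 7.10 TPM. The LAMB1 and LAMC1 ranges, 61.3 to 132 and 33.3 to 64.7 TPM, overlapped at their edges. Among alpha chains ITGAE led with 38.2 ± 4.92 TPM, followed by ITGA1 with 27.8 ± 6.49 and ITGAV with 15.01 ± 3.33. The ITGAE and ITGA1 ranges, 28.2 to 47.3 and 11.2 to 38.0 TPM, overlapped. The length implied by counts and TPM was 1.64 times its median for ITGA1 and 0.653 times for LAMB2 in the FL library of batch 1, so the TPM of these genes also carries a change of the transcripts counted. ITGAE, whose product pairs with beta7 to bind E-cadherin, shares 427 exon bases with HASPIN on the opposite strand in GENCODE 29, and ITGA1 shares 475 with PELO on its own strand, so reads may be split between these genes. ITGB7, the beta partner of alphaE, was at only 0.171 TPM on average.

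Most collagens were expressed at low levels. COL22A1, a FACIT type, had 15.7 ± 1.53 TPM, COL6A1 11.3 ± 2.87 and COL9A3 4.77 ± 2.90, and 16 of the 25 collagens had a mean under 1 TPM. The fibrillar type I pair was unequal: COL1A1 had 80 to 329 counts in every library, while COL1A2 had 6 counts in all 16 libraries together and was no member. Of the name-matched rows, ITGB1BP1 had the highest level of any member, 178.5 ± 11.50 TPM, and ITGB3BP had 33.0 ± 2.32. Reads of ITGB1P1, a pseudogene on chromosome 19, cannot be separated with certainty from those of ITGB1.

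**Figure D1:**
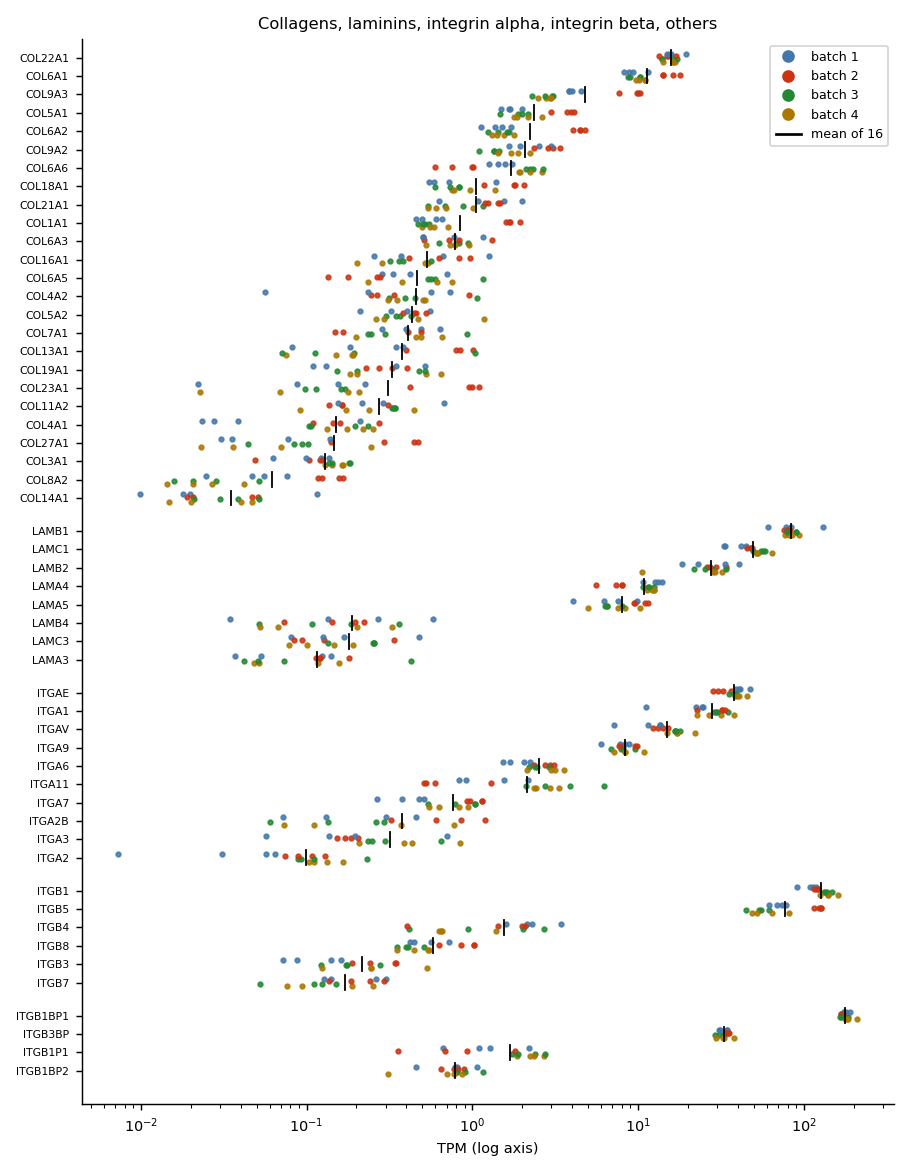
Level of each of the 53 members in the 16 libraries on a log TPM axis, by family and mean level, with points coloured by batch and a bar at the mean. ITGB1BP1, ITGB1, LAMB1 and ITGB5 sit highest, most collagens sit below 1 TPM, and batch 2 points stand to the right for COL9A3, COL6A2, COL23A1 and ITGB5.

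The 34 rows below the count minimum included chains that define other tissues. COL4A3, COL4A6, COL8A1 and COL15A1 had 0 counts in all 16 libraries, LAMA1 had 3 counts in all and ITGBL1 had 5. ITGA5, the alpha chain of the fibronectin receptor, reached 10 counts in 2 libraries and 13 at most. At the edge of the rule, COL8A2 reached 10 counts in 4 libraries and COL14A1 in 5, and COL24A1, in 3 libraries, fell outside. Those 4 COL8A2 libraries were the batch 2 libraries, so COL8A2 had to be higher in batch 2 to be a member.

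Few members differed between the libraries with a HIF-2α form and WT when each form was set against WT within batches. Genes were called at an adjusted p under 0.05 (edgeR quasi-likelihood test with batch and group as terms, Benjamini-Hochberg over 19530 genes). With NCTAD 2 members rose, COL6A5 and ITGB5, against 0.456% of all genes called, and none fell. With FL 0 members were called against 0.102% of all genes, and with cIDR 0 against 0.486%. At an unadjusted p under 0.05, 9 members passed for FL, 10 for NCTAD and 4 for cIDR, where 5.11%, 5.96% and 5.45% of all genes did. Members above WT in 4 of 4 batches numbered 8, 10 and 8, against 5.35%, 8.86% and 10.6% of all genes. These 3 comparisons share the WT libraries.

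COL6A5 encodes a chain that may take the place of alpha3 in type VI collagen. Its CPM in WT was 1.503, 0.800, 1.95 and 1.49 in batches 1 to 4, in FL 2.06, 1.66, 2.62 and 2.23, in NCTAD 3.88, 1.74, 4.58 and 3.66, and in cIDR 2.17, 0.669, 2.41 and 2.51. NCTAD was above WT in 4 of 4 batches, although the batch 2 NCTAD library lay within the WT range. The log2 fold change over WT was 1.25 ± 0.19 (SE) for NCTAD, with an adjusted p of 0.006. For FL it was 0.64 ± 0.20 (adjusted p 0.665) and for cIDR 0.37 ± 0.20 (adjusted p 0.967), neither called. Set against each other, NCTAD and FL differed in COL6A5 by 0.61 ± 0.19 (adjusted p 0.996) and cIDR and NCTAD by -0.88 ± 0.19 (adjusted p 0.513), neither called by edgeR, while DESeq2 called the latter (adjusted p 0.0203).

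ITGB5, the beta chain of the vitronectin receptor, was the other called member. It had 90.5, 152, 77.8 and 69.6 CPM in WT, 116, 173, 84.4 and 101 in FL, 132, 170, 93.8 and 98.2 in NCTAD and 98.9, 153, 76.9 and 82.6 in cIDR, in batches 1 to 4. The batches lay further apart than the groups, and the group ranges overlapped. NCTAD was above WT in 4 of 4 batches, by a log2 fold change of 0.37 ± 0.07 (adjusted p 0.0195). FL was also above WT in 4 of 4 batches, by 0.30 ± 0.07 (adjusted p 0.167, not called; DESeq2 called it at 0.00937), and cIDR in 3 of 4, by 0.09 ± 0.07 (adjusted p 0.999). ITGAV, whose product pairs with beta5, had log2 fold changes of -0.10 ± 0.12, -0.05 ± 0.12 and -0.07 ± 0.12 in FL, NCTAD and cIDR over WT (adjusted p 0.93, 1 and 0.999).

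Both NCTAD calls were lost without the batch term, with COL6A5 at 1.27 (adjusted p 1) and ITGB5 at 0.34 (adjusted p 1), on log2(TPM + 1), and when batch 1, 3 or 4 was left out whole. Without batch 2 both held, with COL6A5 at 1.28 ± 0.15 (adjusted p 0.00238) and ITGB5 at 0.42 ± 0.07 (adjusted p 0.0331). Leaving out 1 library at a time never lost COL6A5, and lost ITGB5 without WT 1, WT 4, NCTAD 1, NCTAD 3 or NCTAD 4 (adjusted p 0.0903 to 0.133).

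Several collagens lay above WT in every batch without being called. COL18A1, the source of endostatin, had 1.88, 4.23, 2.10 and 2.42 CPM in WT and 2.67, 6.60, 2.88 and 3.27 in NCTAD, a log2 fold change of 0.51 ± 0.11 (adjusted p 0.0646). COL27A1, a fibrillar collagen, had 0.167, 0.745, 0.241 and 0.198 CPM in WT and 0.812, 2.45, 0.540 and 0.610 in cIDR, a log2 fold change of 1.72 ± 0.37 (adjusted p 0.0644). COL23A1, a transmembrane collagen, was at 1 to 7 counts in the WT libraries of batches 1, 3 and 4, and its log2 fold changes were 1.79 ± 0.46 in FL (adjusted p 0.342) and 1.68 ± 0.46 in NCTAD (adjusted p 0.254). With DESeq2 these COL18A1 and COL27A1 differences were called (adjusted p 0.031 and 0.00776). COL18A1 shares 1401 exon bases with SLC19A1 on the opposite strand, and whether the counting used strand is not stated.

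By family, most collagens had values above WT and most integrin alpha chains did not. Of 25 collagens, 19 had a positive log2 fold change in FL, 20 in NCTAD and 20 in cIDR, where 53.6%, 56.3% and 52.9% of all genes did. The collagen medians were 0.24, 0.22 and 0.11, and those of all genes were 0.011, 0.016 and 0.0079. The 9 type VI, anchoring, multiplexin and transmembrane collagens had medians of 0.37, 0.39 and 0.32, and the 3 network types 0.35, 0.25 and 0.096. The 7 FACIT types had smaller medians of 0.088, 0.034 and 0.054. The 6 fibrillar types had 0.057, -0.00087 and 0.033, with 3 of 6 positive for each form. The 10 integrin alpha chains had medians of -0.10, -0.03 and -0.03, and the 8 laminins 0.10, 0.00085 and 0.02. The collagen receptor chains ITGA1, ITGA2 and ITGA11 were each below WT in the 3 fits, for ITGA1 by -0.10 ± 0.09, -0.12 ± 0.09 and -0.16 ± 0.09, none called (-0.25 to -0.09 in cIDR without 1 library). Of the chains below WT with the smallest p, LAMB4 had -0.78 ± 0.34, ITGB3, the platelet vitronectin receptor chain, -0.48 ± 0.26 and ITGA3 -0.38 ± 0.28 (-0.56 to -0.25 without 1 library) in FL (adjusted p 0.92 each). ITGB3 had -0.56 ± 0.26 (adjusted p 0.83) and ITGA2 -0.60 ± 0.39 (adjusted p 0.964, -1.10 to -0.33 without 1 library) in NCTAD, and ITGA9 had -0.17 ± 0.09 (adjusted p 0.968, -0.26 to -0.13 without 1 library) in cIDR. LAMC3, a minor laminin gamma chain, had 0.417, 0.558, 0.603 and 0.527 CPM in WT and 0.825, 0.822, 0.774 and 0.936 in FL. These 2 groups did not overlap, but the log2 fold change of 0.67 ± 0.25 was not called (adjusted p 0.92).

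Between the forms, edgeR called no member in any of the 3 comparisons, and DESeq2 called 2 in 1 of them. By edgeR, 0 members were called, against 0% of all genes for NCTAD and FL, 0.0307% for cIDR and FL and 0.00512% for cIDR and NCTAD, and 3, 6 and 6 members had an unadjusted p under 0.05, where 3.69%, 3.68% and 2.15% of all genes did. The smallest p values were those of LAMC3 for NCTAD against FL (-0.84 ± 0.25, unadjusted p 0.00471), COL27A1 for cIDR against FL (1.19 ± 0.35, unadjusted p 0.00407) and COL6A5 for cIDR against NCTAD. DESeq2 called 2 members between cIDR and NCTAD, COL6A5 and ITGB5, both lower in cIDR (adjusted p 0.0203 and 0.0291), and 0 in the other 2. LAMB1, at -0.13 ± 0.09 for NCTAD against FL, turned to 0.0044 without the FL library of batch 1.

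**Figure D2:**
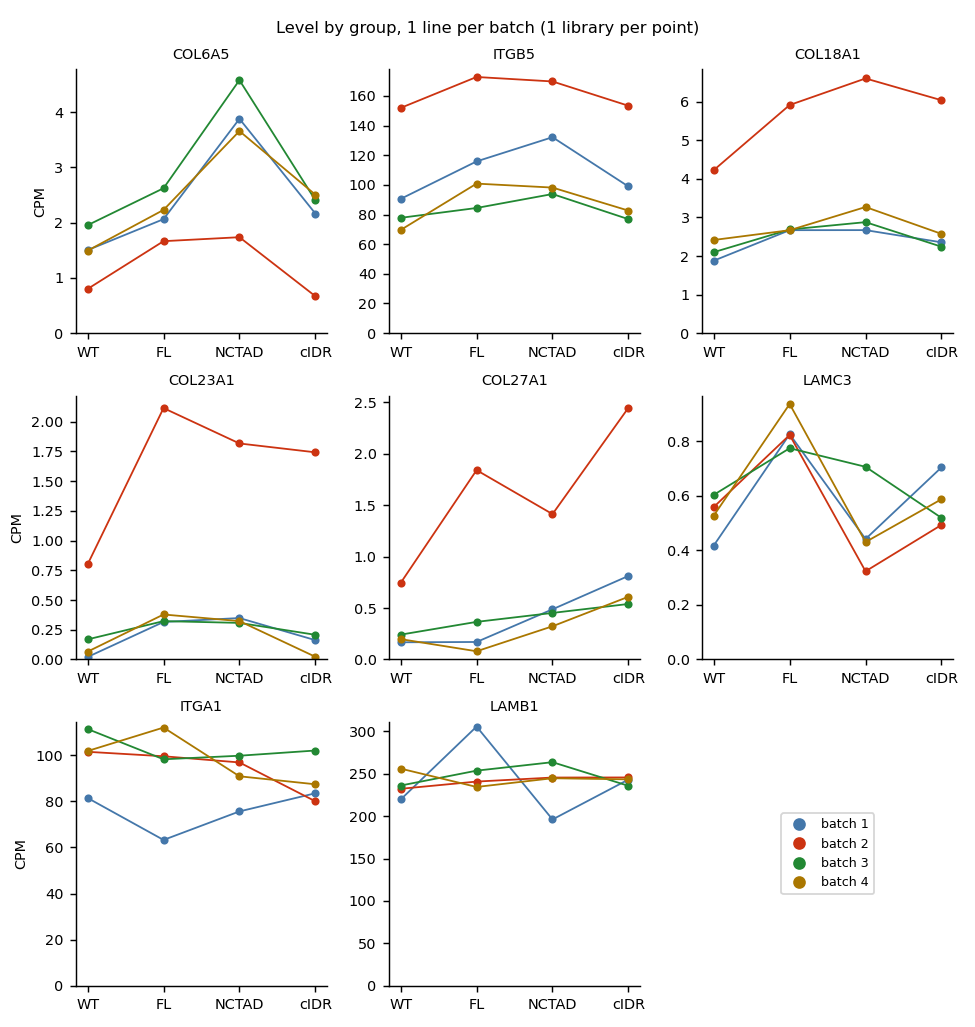
CPM of 8 members by group, with 1 line per batch and 1 library per point. COL6A5 peaks in NCTAD in the 4 batches, the batch 2 lines of ITGB5, COL18A1, COL23A1 and COL27A1 run above the others, and LAMB1 and ITGA1 show no common slope.

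Companion genes of the pathway were read against the 0.102%, 0.456% and 0.486% of all genes called with FL, NCTAD and cIDR. Of 20 tested genes for collagen folding, hydroxylation and crosslinking, 3 rose with cIDR and none fell: LOXL3, a lysyl oxidase (0.59 ± 0.09, adjusted p 0.0078), PLOD2, the lysyl hydroxylase of telopeptides (1.64 ± 0.26, adjusted p 0.00876), and P4HA1, a prolyl hydroxylase subunit (0.43 ± 0.07, adjusted p 0.0112). With NCTAD 1 of the 20 rose, SERPINH1, the collagen chaperone (0.32 ± 0.06, adjusted p 0.0269), and with FL 0. Among 20 other matrix genes and 24 focal adhesion genes, 0 were called with any form. Of 14 hypoxia reporters, which the study's factor is known to drive in part, 1 rose with FL, 6 with NCTAD and 8 with cIDR, among them BHLHE40 in each (0.78 ± 0.08, 0.93 ± 0.08 and 1.11 ± 0.08). P4HA1 is in both this list and the collagen folding list, so its rise with cIDR is counted in each. Of the 2 tested endothelial markers VWF rose with cIDR (1.65 ± 0.34, adjusted p 0.0439), and of 11 adrenergic markers DBH and TH rose with NCTAD and with cIDR. Their part in the member values was not tested.

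Batch separated the members far more than the constructs did. Of the variance of log2 CPM of a member, batch took a median of 67.2% and group 7.12%, against 53.8% and 7.85% over all genes. For collagens the median batch share was 79.1% (74.8% without COL8A2, a member through batch 2 alone), for laminins 49.8%, for integrin alpha chains 63.1% and for beta chains 69.6%. LAMA4 (95.5%), COL9A3 (94.6%) and ITGA11 (94.2%) had the highest shares. Group took more than batch in 7 of 53 members, among them LAMC3, with 63.3% for group and 6.98% for batch. Batch took more than group in 46 of 53 members and in 17045 of 19530 genes, so the 7 are near the share over all genes.

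**Figure D3:**
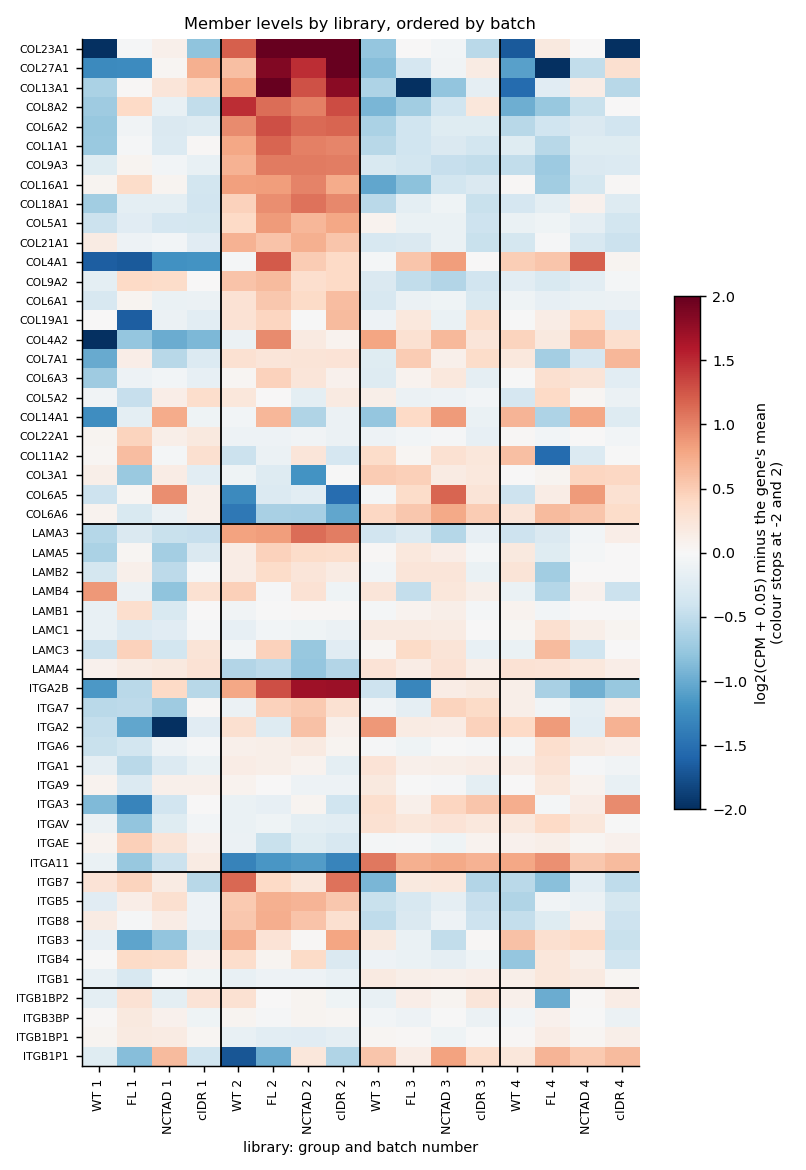
Level of each member in each library as log2(CPM + 0.05) minus the gene's mean, ordered by batch and then group, with families divided by lines. The 4 batch 2 columns are red for most collagens, ITGA2B, ITGB5 and ITGB8 and blue for LAMA4, ITGA11, COL6A5 and COL6A6, and COL4A1 and COL4A2 are blue in batch 1.

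In batch 2, most called collagens were higher and a few chains were lower than in the other batches. The collagens summed to 56.4 to 67.0 TPM in the 4 batch 2 libraries and 39.5 to 51.0 in the other 12, without overlap. Against the mean of batches 1, 3 and 4, 32 of 53 members were called (60.4%), 23 higher and 9 lower, where 53.9% of all genes were called, 27.7% higher and 26.1% lower. The share called was near the background. The median log2 fold change was 0.28 over members, 0.65 over collagens and 0.035 over all genes. By family, 15 collagens were higher and 2 lower of 25, 2 laminins higher and 2 lower of 8, 2 integrin alpha chains higher and 2 lower of 10, and 4 beta chains higher and 1 lower of 6. In 15 members, 11 of them collagens, the 4 batch 2 libraries lay above the other 12 (14.4% of all genes), and in 5 they lay below (14.6%). These counts hold COL8A2, a member through batch 2 alone. Without it 31 of 52 members were called, 22 of them higher, 14 of 24 collagens were higher, and 14 members, 10 of them collagens, lay above the other 12 libraries. The median log2 fold change without COL8A2 was 0.28 over members and 0.63 over collagens. Since batch 2 is a single batch, this test measures the spread between libraries and not between batches, and batch 2 was singled out with its values known.

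Type VI collagen divided by chain. COL6A1 and COL6A2, neighbours on chromosome 21 and obligate chains of the main type VI trimer, were higher in batch 2: COL6A2 had 8.64 to 10.99 CPM there against 2.63 to 4.27 in the other 12 libraries (median 3.53), and COL6A1 36.3 to 45.7 against 23.8 to 30.7 (median 27.3). Neither pair of ranges overlapped, and the log2 fold changes were 1.52 ± 0.08 (adjusted p 7.33e-10) and 0.62 ± 0.06 (adjusted p 5.3e-07). The third chain, COL6A3, was higher by 0.28 ± 0.10 (adjusted p 0.0292), with overlapping ranges of 3.11 to 4.15 and 1.82 to 3.76 CPM. COL6A5 and COL6A6, neighbours on chromosome 3, were lower: COL6A6 had 3.54 to 6.13 CPM against 7.79 to 16.3 (median 12.6), a log2 fold change of -1.26 ± 0.12 (adjusted p 6.71e-07), and COL6A5 fell by 1.09 ± 0.17 on the log2 scale (adjusted p 7.5e-05). The log2 ratio of COL6A1 to COL6A2 in CPM was 2.04 in batch 2 and 2.89 to 3.00 in the others.

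**Figure D4:**
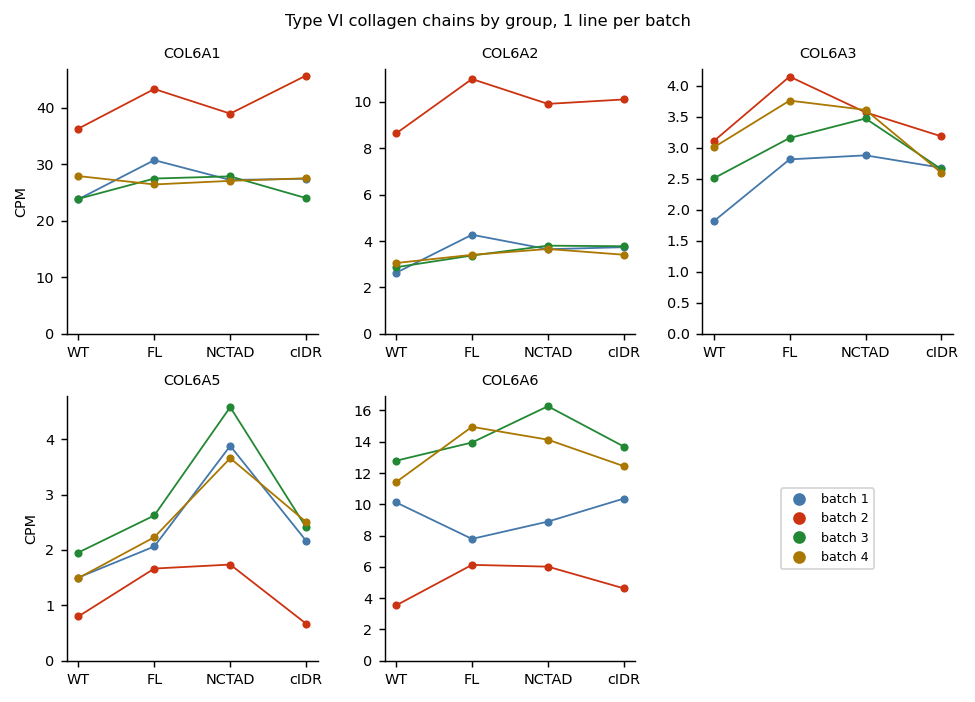
CPM of the 5 expressed type VI collagen chains by group, with 1 line per batch. The batch 2 line lies above the others for COL6A1 and COL6A2 and below them for COL6A6, and COL6A5 is the chain with a peak in NCTAD.

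Among other collagens, 3 of 6 fibrillar and 4 of 7 FACIT types were called higher in batch 2 and none of them lower. Over all genes 27.7% were called higher and 26.1% lower. COL23A1 had 0.800, 2.11, 1.82 and 1.74 CPM in the WT, FL, NCTAD and cIDR libraries of batch 2 against 0.0209 to 0.378 (median 0.258) in the rest, a log2 fold change of 3.00 ± 0.30 (adjusted p 9.23e-07). COL13A1, also transmembrane, differed by 2.18 ± 0.33 (adjusted p 5.07e-05) and COL18A1 by 1.16 ± 0.08 (adjusted p 3.31e-08). COL1A1 had 4.93 to 6.44 CPM against 1.69 to 2.90 (1.31 ± 0.11, adjusted p 1.58e-07). COL5A1, which starts fibre assembly, had 16.1 to 22.0 against 9.02 to 12.8 (0.91 ± 0.08, adjusted p 2.62e-07). COL9A3, a FACIT chain, had 8.30 to 10.5 against 3.05 to 5.32 (1.27 ± 0.09, adjusted p 2.76e-08). The highest and lowest levels of these 3 did not meet. COL21A1, another FACIT type, differed by 0.86 ± 0.10 (adjusted p 4.8e-06) and COL27A1 by 2.20 ± 0.26 (adjusted p 4.4e-06), though the COL27A1 WT library of batch 2, at 0.745 CPM, lay below the highest of the others, at 0.812. COL8A2 had 16 to 25 counts in batch 2 and 2 to 8 elsewhere, which is how it came to be a member and is no test. COL3A1, COL5A2 and COL11A2 among fibrillar types and COL14A1, COL19A1 and COL22A1 among FACIT types were not called.

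In batch 2, 4 of 8 laminin chains were called, 2 higher and 2 lower (25% each), near the 27.7% and 26.1% of all genes. LAMA4, an alpha chain of vascular and neural basement membranes, had 15.4, 16.2, 13.5 and 15.5 CPM in the WT, FL, NCTAD and cIDR libraries of batch 2 against 24.8 to 28.6 in the other 12 (median 26.7). The ranges were apart, with a log2 fold change of -0.83 ± 0.06 (adjusted p 4.69e-08). LAMA3, the epithelial alpha chain, differed by 1.38 ± 0.17 (adjusted p 9.71e-06) at a low level, 0.782 to 0.989 against 0.271 to 0.474 CPM, and LAMA5 by 0.43 ± 0.10 (adjusted p 0.00273). LAMB1, which pairs with LAMC1 in most laminins, was not called, at -0.02 ± 0.08 (adjusted p 0.863). LAMC1 was called lower by a narrow margin, at -0.14 ± 0.06 (adjusted p 0.0498), and kept the call in 6 of the 16 fits that left out 1 library.

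Among integrin beta chains, ITGB5, ITGB8, ITGB7 and ITGB3 were called higher and ITGB1 lower. ITGB5 had 152 to 173 CPM against 69.6 to 132 (median 92.2), a log2 fold change of 0.81 ± 0.05 (adjusted p 9.42e-09), and ITGB8, which activates latent TGF-beta, had 3.87 to 5.17 against 2.17 to 3.49 (0.73 ± 0.10, adjusted p 1.57e-05). ITGB7 differed by 1.19 ± 0.34 (adjusted p 0.009) and ITGB3 by 0.62 ± 0.20 (adjusted p 0.0166). ITGB7 shares 1886 exon bases with ZNF740 on the opposite strand and ITGB3 shares 2266 with AC068234.1 on its own, so their reads may be split. ITGAV was not called, at -0.23 ± 0.10 (adjusted p 0.0708), so the log2 ratio of ITGAV to ITGB5 in CPM was -1.44 in batch 2, -0.997 in batch 1, -0.06 in batch 3 and -0.17 in batch 4. ITGA11, a collagen receptor chain, had 3.67, 4.13, 4.26 and 3.70 CPM in the WT, FL, NCTAD and cIDR libraries of batch 2 against 5.46 to 19.4 (median 14.8), a log2 fold change of -1.66 ± 0.14 (adjusted p 1.71e-07). Batch 1 lay between, at 5.46 to 10.4 CPM, and batches 3 and 4 at 13.5 to 19.4. ITGAE (-0.37 ± 0.08, adjusted p 0.000994), ITGB1 (-0.17 ± 0.05, adjusted p 0.00911) and ITGB1BP1 (-0.25 ± 0.04, adjusted p 0.00011), an inhibitor of beta1 integrin activation, fell by less. ITGB1BP1 shares 2209 exon bases with ASAP2 on the opposite strand. ITGB1P1 was lower by -1.09 ± 0.29 (adjusted p 0.00568), with the uncertainty of its reads given above. ITGA2B, the platelet chain, was higher by 1.95 ± 0.30 (adjusted p 6.79e-05).

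**Figure D5:**
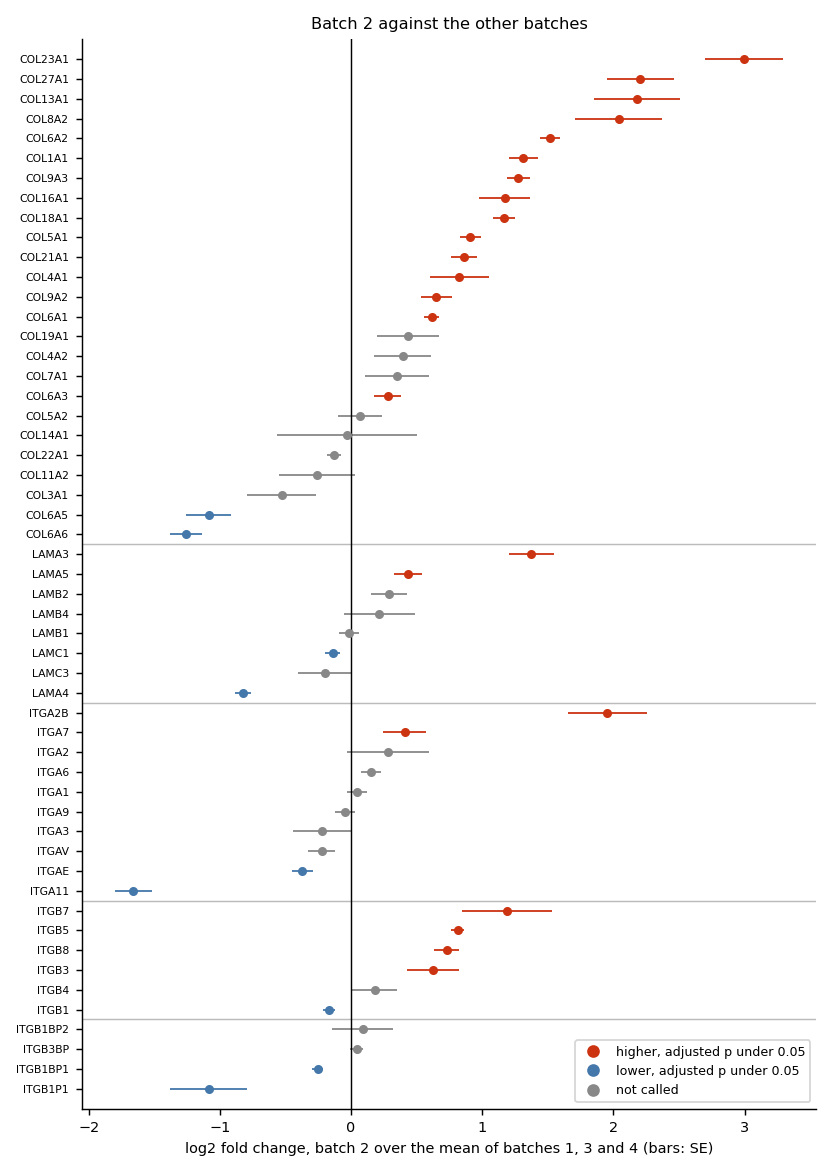
Log2 fold change of each member in batch 2 over the mean of batches 1, 3 and 4, with its SE, by family and size. Of 25 collagens 15 are called higher and COL6A5 and COL6A6 lower, and LAMA4 and ITGA11 stand apart from their families on the lower side. The 15 hold COL8A2, a member through batch 2 alone, and over all genes 27.7% were called higher and 26.1% lower.

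The promoter windows of members called higher in batch 2 held a match of ACGTG or GCGTG in 12 of 24 windows (50%), those called lower in 2 of 9 (22.2%) and those not called in 6 of 18 (33.3%), against 43.2% of all windows. Windows of 1 gene can overlap and share a match, as both COL5A1 windows do. By gene, 10 of 18 members called higher, 2 of 7 called lower and 4 of 13 not called had a match in any window. Without COL8A2 the members called higher had a match in 11 of 23 windows and in 9 of 17 genes. Of the genes shown at the start, COL23A1 and the inner ITGB5 starts had matches, and COL27A1 and COL6A2 had none. These shares are descriptions of letters in a 250-base window.

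Other genes of the pathway were called in batch 2 in both directions, where 27.7% of all genes were called higher and 26.1% lower. Of 20 other matrix genes, 12 were higher and 3 lower, with NID2, a basement membrane linker, among the higher (1.18 ± 0.06, adjusted p 2.18e-09). Of 20 genes for collagen folding, hydroxylation and crosslinking, 8 were higher and 8 lower, with P4HA2 (1.55 ± 0.05), PLOD1 (1.22 ± 0.05), LOXL3 (1.37 ± 0.07) and LOXL2 (2.80 ± 0.15) among the higher. Of 24 focal adhesion genes, 6 were higher and 9 lower, among them PARVA (-0.86 ± 0.09) and RSU1 (-0.50 ± 0.05). Of 14 hypoxia reporters, 12 were higher and 0 lower, with a median of 0.88, including PDK1 (2.81 ± 0.08) and BNIP3 (1.73 ± 0.06). P4HA1 is in both this list and the collagen folding list. The 11 adrenergic markers summed to 5879 to 6274 TPM in batch 2 and 6333 to 7177 in the others, with 4 higher and 5 lower. The 5 tested of 6 fibroblast markers had 3 higher and 1 lower, LUM first (1.45 ± 0.05), with summed levels of 374 to 404 TPM in batch 2 and 314 to 493 in the others. The 2 tested endothelial markers were higher, with a summed level of 0.286 to 0.606 TPM over the 5 against 0.0244 to 0.275, and KDR, PECAM1 and TEK at no more than 11 counts in any library. Of 7 tested mesenchymal markers 2 were higher and 3 lower, and of 5 tested Schwann cell markers 1 was higher. The part of these in the batch 2 differences was not tested.

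No member was called for a construct effect that differed between batch 2 and the other batches. A model with a separate construct effect for batch 2 called 0 of 53 members (5 genes, 0.0256% of all genes), and 2 members had an unadjusted p under 0.05, as 1.31% of all genes did: COL5A1 (0.45 ± 0.17, unadjusted p 0.0192) and COL6A6 (0.55 ± 0.24, unadjusted p 0.0434). EPAS1 was among the 5, with its rise over WT smaller in batch 2 by 1.92 ± 0.20 on the log2 scale (adjusted p 0.0061). NDRG1, a hypoxia reporter, was also among the 5, at -1.87 ± 0.20 (adjusted p 0.0061). Batch 2 holds 1 library per group, so the spread in this test comes from the other batches.

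In batch 1, 2 of the 3 network collagens, COL4A1 and COL4A2, were called lower, and COL8A2 was not called. Against the other 3 batches, 22 members were called, 4 higher and 18 lower, where 24.7% of all genes were called, 14.9% higher and 9.77% lower. The 22 became 14 without the NCTAD library of batch 1 and 12 with limma on log2(TPM + 1). COL4A1 and COL4A2, head-to-head neighbours on chromosome 13 whose products form the main basement membrane trimer, were lower by -2.22 ± 0.29 (adjusted p 0.000147) and -1.62 ± 0.25 (adjusted p 0.000516). COL4A1 had 0.121 to 0.189 CPM in batch 1, while batches 2, 3 and 4 had 0.484 to 1.23, 0.483 to 0.923 and 0.519 to 1.20. The batch 1 range met none of these. Of 10 integrin alpha chains, 6 were lower in batch 1, among them ITGA3 (-0.91 ± 0.24, adjusted p 0.0133) and ITGA6 (-0.31 ± 0.08, adjusted p 0.0109), receptors for laminins. A single alpha chain, ITGAE, was higher (0.30 ± 0.08, adjusted p 0.0103). Of the companion lists, 7 of 14 hypoxia reporters, 8 of 20 other matrix genes and 3 of 7 mesenchymal markers were lower in batch 1, with 0, 1 and 1 higher, and of 11 adrenergic markers 6 were higher and 1 lower. Hypoxia reporters were also called lower in batches 3 and 4, at 8 and 7 of 14, with 0 and 0 higher. The batches that 1, 3 and 4 were each set against include batch 2. The part of these lists in the batch 1 differences was not tested. In batches 3 and 4, 19 and 14 members were called against 16% and 13.4% of all genes, and 0 and 0 when batch 2 was left out, where 43 genes and 1 gene were called in all. For batch 1, 13 members and 2540 genes in all were called without batch 2. The settings for batches 1, 3 and 4 were chosen after the data were seen.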

How the data were processed

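RNA-seq of 16 libraries was analysed. The authors deposited estimated counts per gene and TPM values per gene from Salmon; the submitters' processing notes also name fastp, STAR, featureCounts and GRCh38, and versions, annotation release and strand setting are not given in the sources used here. Counts were rounded (15.5% were not whole). Genes were filtered with filterByExpr, which all 53 members passed, scaled by TMM, and tested with edgeR 4.0.16 (R 4.3.3) with batch and group as terms, Benjamini-Hochberg over 19530 genes, at 0.05. CPM uses TMM-scaled totals. limma 3.58.1 and DESeq2 1.42.0 served as alternatives. Batch 2 was set against the mean of the other 3 batches, and likewise batches 1, 3 and 4. The code was tested on simulated data.

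Column names of the tables differ from the group names: columns named CTRL belong to WT, those named WT to FL and those named NTAD to NCTAD, as the library name in each sample's description says. The labels give each replicate number as a batch. Deviations from group means correlated at a mean r of 0.31 between same-numbered libraries (24 pairs, 0.067 to 0.71) and -0.09 between others (72 pairs). No replicates were duplicates (lowest chi-square per degree of freedom 7.24). The members, gene lists and comparisons were chosen with earlier results of these data known. Members were named if called (up to 10 in each direction), by the 3 smallest p in each direction where fewer than 3 were called, by the 3 highest TPM of a family, or as co-assembling pairs. Others named were chosen after their values were seen.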

Additional observations from a re-analysis of the deposited data

Results flagged for a closer look

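Within groups of 4 libraries, 17 of 88 groups over 22 members held 1 library far from the other 3. The rule was the 95% critical value of Dixon for the gap over the range, which chance alone passes in about 5% of groups. Each of the 17 was the batch 2 library. The 22 were the members named for the group comparisons, and the 4 groups of a member share the same batches, so the 88 are not separate tests. The share of such groups over all genes is not given here, and 53.9% of all genes were called in batch 2. COL6A2 stood out in WT, FL, NCTAD and cIDR at 8.64, 10.99, 9.91 and 10.1 CPM, against 2.63 to 3.05, 3.38 to 4.27, 3.65 to 3.80 and 3.41 to 3.78 in the others. COL27A1 did so at 0.745, 1.84, 1.41 and 2.45 CPM, against 0.167 to 0.241, 0.0797 to 0.365, 0.323 to 0.488 and 0.540 to 0.812. COL18A1 stood out in FL, NCTAD and cIDR at 5.91, 6.60 and 6.04 CPM, against 2.67 to 2.69, 2.67 to 3.27 and 2.24 to 2.57. COL23A1 did so in the same groups at 2.11, 1.82 and 1.74 CPM, against 0.316 to 0.378, 0.308 to 0.348 and 0.0226 to 0.208. COL21A1 and COL6A3 stood out in cIDR at 3.29 CPM against 1.62 to 1.89 and 3.19 CPM against 2.60 to 2.68, and ITGA2B in FL at 0.901 CPM against 0.107 to 0.218. These are the batch 2 differences of the report seen within groups, not a separate result.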

How the results depend on the processing

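With NCTAD against WT, the 2 called members became 0 with no replicate block, 0 when limma was run on TPM with a pseudocount of either 1 or 0.1, and 0 without batch 1, batch 3 or batch 4. Leaving out 1 library gave 1 to 2, and DESeq2 gave 3. The other 5 group comparisons had 0 called members without the replicate block. FL against WT had 1 with DESeq2 (ITGB5, adjusted p 0.00937). cIDR against WT had 1, COL27A1, with no low-count filter, DESeq2 or only its 8 libraries, and 0 to 1 without 1 library. cIDR against NCTAD had 2 with DESeq2. Batch 2 had 28 to 33 called members without 1 library (8902 to 11433 genes in all), 24 of the 40 members with at least 10 counts in every library (9471 genes) and 22 with limma on log2(TPM + 1) (8422 genes). Batch 1 gave 12 with limma on log2(TPM + 1), 13 without batch 2, and 14 to 25 without 1 library. Batch 3 gave 8 and 8 with limma at the same pseudocounts, 0 without batch 2, and 12 to 20 without 1 library. Batch 4 gave 6 and 5 with limma, 0 without batch 2, 24 without batch 3, and 8 to 16 without 1 library. Over all genes, calls were 20, 89 and 95 for FL, NCTAD and cIDR against WT, 2, 5 and 2 without the replicate block, and 58, 168 and 156 with DESeq2. Leaving out 1 library gave 10 to 26, 43 to 124 and 49 to 123 genes. Of 1488 alternative values for named members, 1434 kept direction and side of the threshold, 40 lost the call, 10 gained it and 4 changed sign. The sign changes were COL18A1 in cIDR against WT (-0.0096 on log2(TPM + 0.1)), and in NCTAD against FL LAMB1 (-0.19 to 0.0044 over fits without 1 library, positive without FL replicate 1, and 0.055 without batch 1) and LAMA5 (0.010 without batch 1). The cause was not tested. Members near the count minimum, such as COL8A2 and COL14A1, are limited by depth.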
